A study of Mus musculus with 24 samples.

Results

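Progenitor-only interactions are called contacts of promoters that were present in wild-type (WT) neural crest progenitors at embryonic day 8.5 and had no call 3 days later in any WT facial tissue. They were chosen by their calls: a pair of restriction fragments on the same chromosome had to be listed in both E8.5 WT libraries and in none of the 8 E11.5 WT libraries. The rule took 12226 of 1153700 distinct same-chromosome (cis) pairs listed in any of the 24 libraries. They were 16.0% of the 76288 pairs called in both E8.5 libraries. Without E8.5 replicate 1 the rule took 62987 pairs and without replicate 2 it took 58658, so the need for both replicates set the number. Because calls at both stages chose these pairs, every value set between E8.5 WT and E11.5 WT is a description and carries no test.

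The libraries came from mouse embryos and fell into 12 groups of 2, all labelled as cranial neural crest cells. The E11.5 groups, given here as the labels spell them, were Ezh2cKO in 4 tissues (FNP, Mx, Md and PA2), Hoxa2PTE-36kb-del in Md and PA2, Hoxa2PTE-42kb-del in PA2, and WT in the same 4 tissues. The E8.5 group was WT and is labelled NCC progenitors. In this field FNP usually stands for the frontonasal process, Mx and Md for the upper and lower jaw processes of the first pharyngeal arch, and PA2 for the second arch. Ezh2cKO is a conditional loss of Ezh2, and the other 2 alleles are deletions named by their size. Titles call the replicates biological except in the 42kb group.

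Several points limit these groups as models. Fluorescence sorting is stated for Wnt1::Cre;ROSARFP and Ezh2cKO embryos. The sources used here do not say whether the deletion cells were sorted, which Cre driver removed Ezh2 or how much Ezh2 was left. They give neither the zygosity nor the position of the deletions. RNA was not measured here, so neither the labelled cell type nor the loss of Ezh2 could be checked by expression. Each library carries a batch label of its own, so batch and library cannot be told apart. A called contact is a property of a cell mixture: fewer cells with a contact and a weaker contact in each cell cannot be told apart.

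In promoter capture Hi-C, cross-linked chromatin is cut with HindIII and ligated, so that fragments close together in the nucleus are joined, and junctions with a promoter fragment (the bait) are pulled out with probes. The fragment joined to a bait is called its other end. The neural crest leaves the dorsal neural tube and migrates into the face, where it forms bone, cartilage and connective tissue. Many developmental promoters in such cells carry histone H3 methylated at lysine 27, the mark that Ezh2 deposits as the enzyme of Polycomb repressive complex 2. Promoters with this mark are known to contact each other over long distances, on the same or on different chromosomes. In mammals, Polycomb target promoters are commonly rich in the base pair step CG.

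The promoters below belong to baits that recur in the results. Hoxd12, Dlx2 and Pax6 are transcription factor genes joined to each other over megabases, Cxcr4 encodes a migration receptor, Gramd1a was the named bait with most progenitor-only pairs, and Cwc22 was the named bait with most pairs among those whose E8.5 pairs were all progenitor-only. Each sequence runs 5′ to 3′ along the gene, from 250 bases before to 50 bases after its start, in RefSeq's annotation of GRCm38.p6. Capitals mark each CG, which reads the same on both strands. Their places are chr2:74674763-74675062 on the plus strand for Hoxd12, chr2:71546705-71547004 on the minus strand for Dlx2 and chr2:105668646-105668945 on the plus strand for Pax6. Those of the others are chr1:128592250-128592549 for Cxcr4, chr7:31151122-31151421 for Gramd1a and chr2:77946307-77946606 for Cwc22, all on the minus strand.
Hoxd12: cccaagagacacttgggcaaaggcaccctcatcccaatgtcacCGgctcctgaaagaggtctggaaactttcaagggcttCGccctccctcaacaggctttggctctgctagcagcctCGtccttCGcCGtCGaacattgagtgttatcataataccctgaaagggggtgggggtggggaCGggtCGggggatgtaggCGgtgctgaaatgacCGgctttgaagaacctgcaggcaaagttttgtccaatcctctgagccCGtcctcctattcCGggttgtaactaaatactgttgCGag
Dlx2: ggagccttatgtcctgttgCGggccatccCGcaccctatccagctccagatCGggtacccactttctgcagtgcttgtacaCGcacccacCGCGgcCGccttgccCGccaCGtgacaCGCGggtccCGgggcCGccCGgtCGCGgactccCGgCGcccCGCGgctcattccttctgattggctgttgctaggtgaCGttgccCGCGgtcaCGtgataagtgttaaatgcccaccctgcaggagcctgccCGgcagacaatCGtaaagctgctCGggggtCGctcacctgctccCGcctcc
Pax6: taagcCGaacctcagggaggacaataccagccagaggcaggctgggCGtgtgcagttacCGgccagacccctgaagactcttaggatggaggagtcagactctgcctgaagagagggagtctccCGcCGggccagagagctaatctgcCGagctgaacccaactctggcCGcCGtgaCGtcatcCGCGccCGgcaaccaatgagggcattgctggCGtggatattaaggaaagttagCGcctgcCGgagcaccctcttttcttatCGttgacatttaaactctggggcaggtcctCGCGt
Cxcr4: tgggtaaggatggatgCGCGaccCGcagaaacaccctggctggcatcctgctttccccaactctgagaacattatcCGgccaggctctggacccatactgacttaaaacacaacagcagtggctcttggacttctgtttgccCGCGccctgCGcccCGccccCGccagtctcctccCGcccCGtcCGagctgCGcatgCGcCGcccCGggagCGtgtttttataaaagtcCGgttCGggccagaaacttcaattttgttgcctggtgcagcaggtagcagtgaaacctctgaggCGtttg
Gramd1a: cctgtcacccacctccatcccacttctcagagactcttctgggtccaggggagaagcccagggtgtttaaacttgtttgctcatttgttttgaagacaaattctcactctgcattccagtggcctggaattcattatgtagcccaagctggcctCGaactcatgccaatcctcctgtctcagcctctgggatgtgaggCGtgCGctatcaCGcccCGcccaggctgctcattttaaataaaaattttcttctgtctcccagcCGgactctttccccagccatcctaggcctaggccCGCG
Cwc22: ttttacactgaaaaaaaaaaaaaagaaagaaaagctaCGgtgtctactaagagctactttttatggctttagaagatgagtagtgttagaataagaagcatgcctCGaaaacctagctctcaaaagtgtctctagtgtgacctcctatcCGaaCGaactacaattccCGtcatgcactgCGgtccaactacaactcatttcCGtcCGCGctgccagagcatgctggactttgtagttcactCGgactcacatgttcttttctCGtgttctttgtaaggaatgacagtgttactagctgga
Dlx2 holds 29 CG in these 300 bases, and 12.9% of all 32851 promoters in the table have as many or more. Cxcr4 holds 20 (26.5% of promoters have as many), Pax6 holds 18 (29.7%) and Hoxd12 holds 13 (37.9%). Cwc22 holds 11 (41.4%) and Gramd1a 8 (48.7%). Promoters in a bait with a progenitor-only pair had a median of 17 CG (6470 promoters), against 15 CG for those in a bait without one (12131 promoters). The CG count therefore differs little between these sets of baits, and it is given as a description.

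Progenitor-only pairs lay close to the calling threshold more often than pairs that were kept. The deposited lists hold pairs with a score of 5 or more, and the score is used here only within a library. The lower of a member's 2 E8.5 scores had a median of 5.69, with quartiles of 5.28 and 6.46. It was under 7 in 83.8% of progenitor-only pairs, against 33.6% of the 26272 pairs called in both E8.5 and all 8 E11.5 WT libraries. Only 328 members reached 10 in both E8.5 libraries. Just outside the rule stood 5811 pairs called in both E8.5 libraries and in 1 E11.5 WT library, and 97193 called in 1 E8.5 library and in no E11.5 WT library.

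A fixed rule of this kind finds pairs in any tissue, so the same rule was applied to each E11.5 WT tissue against the other 8 WT libraries. Beside the 16.0% at E8.5, it took 1732 FNP-only pairs (2.24% of the pairs called in both FNP libraries), 1936 Mx-only pairs (2.48%), 3527 Md-only pairs (4.25%) and 5318 PA2-only pairs (6.16%). The E8.5 share was above each of these. The tissue rules share libraries and the E8.5 group differs from the others in stage, tissue and batch label together, so which of these goes with the larger share cannot be told apart. Many members were also close to a call that persisted. In 58.5% of them an E11.5 WT library called the same bait with a fragment within 20 kb of the other end, and the median gap to the nearest such call was 12.3 kb.

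Progenitor-only pairs were longer than kept pairs. Their median distance was 448 kb, against 230 kb for pairs kept in all 8 E11.5 WT libraries. In all, 4351 (35.6%) spanned 1 Mb or more, and 2038 (16.7%) spanned 10 Mb or more, against 0.0799% of the kept pairs. Pairs found in 1 tissue by the same rule were long as well, with medians of 600 kb (FNP), 577 kb (Mx), 809 kb (Md) and 895 kb (PA2), and 34.3% to 47.6% of them spanned 1 Mb or more. At 10 Mb or more the tissue-only sets held 3.93% to 11.8% of their pairs, fewer than the progenitor-only set. Of the E8.5 pairs at 10 Mb or more, 73.2% were progenitor-only, while the share was 11.7% at 200 kb to 1 Mb and 14.1% under 20 kb. The other ends were spread out: 90.8% of the 9359 non-bait or partner fragments occurred in 1 member, and 1822 members (14.9%) joined 2 baits.

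The longest distances were also where libraries of one group differed most. Of the calls of E8.5 replicate 1, 84.6% were called again in replicate 2 under 20 kb, but 13.1% at 10 Mb or more. Calls at 10 Mb or more made up 6.90 ± 1.24% of cis calls in Ezh2cKO (SD, n = 8), 5.55 ± 0.79% with the 36kb deletion (SD, n = 4), and 6.22% and 6.46% with the 42kb deletion. They made up 7.90% to 9.26% in the 8 E11.5 WT libraries and 14.2% and 14.7% in the E8.5 libraries, which were highest. Read depth was unknown, and its part in these shares was not tested.

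**Figure D1:**
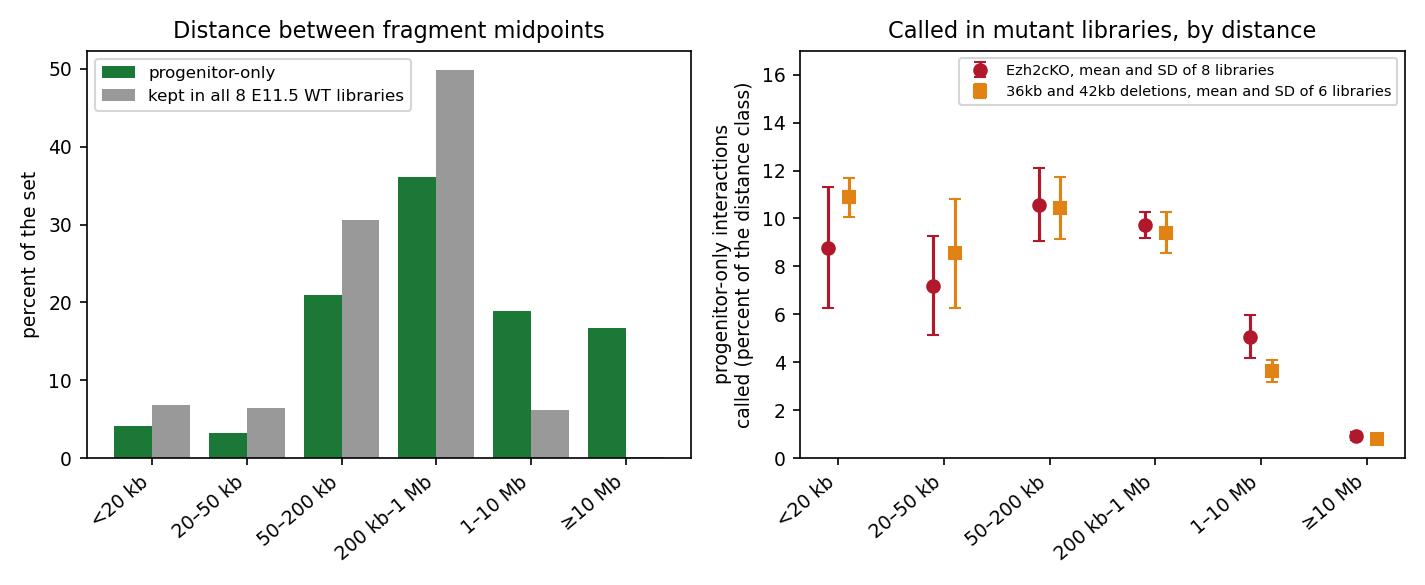
The left panel shows the percent of progenitor-only pairs (green) and of pairs kept in all 8 E11.5 WT libraries (grey) in 6 classes of distance between fragment midpoints; 16.7% and 0.0799% lie at 10 Mb or more. The right panel shows the percent of progenitor-only pairs of each class called in Ezh2cKO libraries (circles, mean and SD of 8) and deletion libraries (squares, mean and SD of 6), lowest at 10 Mb or more with 0.926% and 0.777%.

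By chromosome, the share of E8.5 pairs that were progenitor-only ranged from 10.7% on chromosome 15 to 20.6% on chromosome 2 among the autosomes, and reached 32.1% (387 of 1204 pairs) on chromosome X. Chromosome 7 held most members, 1659, and 59.9% of them spanned 1 Mb or more. X-linked pairs were 2.55 ± 0.07% of cis calls in E11.5 WT (SD, n = 8), and 2.85% and 2.93% in the E8.5 libraries. The labels do not state the sex of the embryos, and its part in the X-linked share was not tested.

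Of 22203 baits, 7143 (32.2%) had at least 1 progenitor-only pair, 4341 of them exactly 1. At the other end, 83 baits had 10 or more and held 1178 members. Among named baits Gramd1a led with 32 progenitor-only pairs of its 73 E8.5 pairs, 30 of them at 1 Mb or more. It encodes an endoplasmic reticulum protein that moves cholesterol, and its bait lies at chr7:31139159-31152823. The same stretch of chromosome 7 held Usf2, an E-box binding factor, with 28 of 76 pairs, the Fxyd1, Fxyd7 and Lgi4 bait with 25 of 63, Ffar3, a receptor for short-chain fatty acids, with 22 of 84, and Dmkn with 20 of 70. Elsewhere on chromosome 7 lay the zinc finger gene Zik1 with 28 of 145, Ceacam16 with 21 of 57 and Tomm40, the mitochondrial import pore, with 19 of 66. Of the 15 baits with most members, 9 were on chromosome 7.

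At these baits the progenitor-only pairs came on top of many calls at every stage. Gramd1a had 102 to 194 calls in the Ezh2cKO libraries (median 134) and 91, 87, 64 and 131 in the 36kb libraries. It had 120 and 111 in the 42kb libraries, 93 to 178 in E11.5 WT (median 138.5), and 159 and 194 at E8.5. The groups overlapped. The pairs between chr7:30500001-31000000 and chr7:34000001-34500000, counted over all baits there, behaved otherwise. This block joins the Usf2, Ffar3 and Dmkn stretch to Gpi1, Uba2 and Lsm14a, and 35 of its 39 E8.5 pairs were progenitor-only. It had 2 to 10 calls in Ezh2cKO libraries, 3 to 11 with the 36kb deletion, 5 and 9 with the 42kb deletion, 3 to 13 in E11.5 WT, and 122 in each E8.5 library. Both E8.5 libraries were far above the rest, and the other groups overlapped.

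Blocks of this kind, 500 kb by 500 kb and defined after seeing the data, were few. The 4351 members at 1 Mb or more fell into 2824 blocks, 2282 of which held 1 member, while 30 blocks held 10 or more and together 541 members. The fullest joined the region of Tex14, Rad51c and Trim37 (chr11:87000001-87500000) to that of Brca1, Nbr1 and Arl4d (chr11:101500001-102000000), with 58 members among 190 E8.5 pairs. It had 17 to 44 calls in Ezh2cKO libraries, 16 to 44 in deletion libraries, 77.2 ± 18.1 in E11.5 WT (SD, n = 8), and 336 and 365 at E8.5. Its highest-scoring member joined a Tex14 fragment that holds the small RNA gene Rnu3b3 to Gm11634, and the part of read mapping in this block was not tested. A block on chromosome 2 joined Lhx6, Mrrf and Ptgs1 to Olfr368, Pdcl and Rc3h2, about 1 Mb away, with 38 members among 70 E8.5 pairs. Its calls were 20 to 38 in Ezh2cKO, 12 to 25 with deletions, 7 to 21 in E11.5 WT, and 118 and 111 at E8.5.

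**Figure D2:**
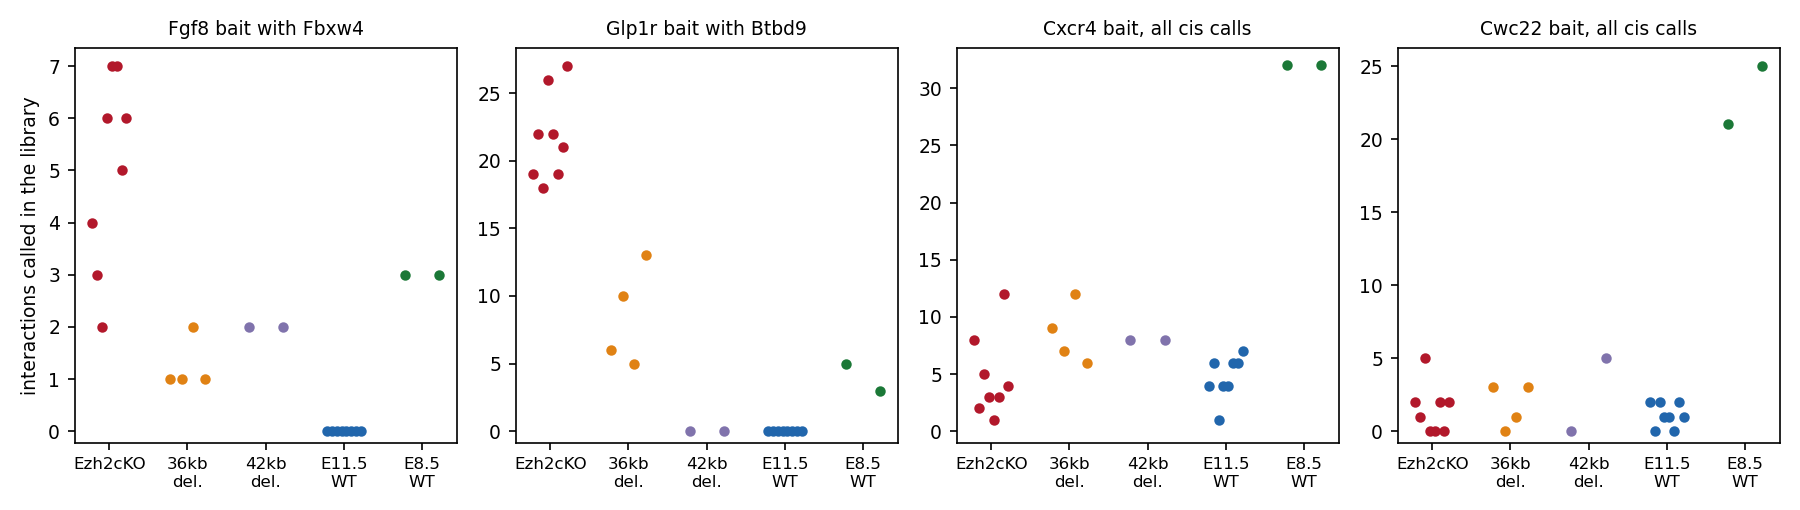
The number of calls in each library (1 point each) for the Fgf8 bait with Fbxw4, the Glp1r bait with Btbd9, and all cis calls of the Cxcr4 and Cwc22 baits, in Ezh2cKO, 36kb and 42kb deletion, E11.5 WT and E8.5 WT groups. The Ezh2cKO libraries reach 7 and 27 at Fgf8 and Glp1r, where all E11.5 WT libraries are at 0, while both E8.5 libraries are highest at Cxcr4 (32 each) and Cwc22 (21 and 25).

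At some baits each pair called in both E8.5 libraries was progenitor-only. There were 15 baits with 5 or more E8.5 pairs of which each one was progenitor-only. Not all of these baits had few calls later: Ube2a, with 5 of 5, had 9 to 16 in E11.5 WT, and 17 and 13 at E8.5. Cwc22, which encodes a splicing factor, had 13 of 13, at chr2:77944136-77946605. Its bait had 0 to 5 calls in Ezh2cKO libraries (median 1.5), 3, 0, 1 and 3 with the 36kb deletion, 0 and 5 with the 42kb deletion, 0 to 2 in E11.5 WT (median 1), and 21 and 25 at E8.5. The E8.5 libraries lie above every other library. The Cwc22 region is known to vary in copy number between mouse strains, the strains are not stated in the labels, and the part of copy number in these calls was not tested. Pax5, a factor of B cells and of the midbrain-hindbrain boundary, had 6 of 6, with 0 to 2 calls in Ezh2cKO, 1 to 6 with deletions, 1 to 4 in E11.5 WT, and 12 and 9 at E8.5. Synrg, an adaptor of vesicle traffic, also had 6 of 6, and Slc2a1, the glucose transporter GLUT1, had 5 of 5.

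Among migration genes Cxcr4 had most progenitor-only pairs. It encodes the receptor for Cxcl12, a chemokine that guides migrating cells, and its bait lies at chr1:128587743-128594308. Of its 24 E8.5 pairs 14 were progenitor-only, all under 1 Mb, with a median distance of 215 kb. The bait had 1 to 12 calls in Ezh2cKO (median 3.5), 9, 7, 12 and 6 with the 36kb deletion, 8 and 8 with the 42kb deletion, 1 to 7 in E11.5 WT (median 5), and 32 in each E8.5 library. Pdgfra, a receptor of crest mesenchyme, had 6 of 18. The migration and survival list as a whole had 34 progenitor-only pairs among 266 E8.5 pairs (12.8%), below the 16.0% of all E8.5 pairs.

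Specifier genes of the early neural crest divided. Foxd3, a factor of premigratory crest, had 7 of 10 pairs progenitor-only, and Tfap2a and Wnt1 had 6 of 14 each. Foxd3 had 0 to 4 calls in Ezh2cKO (median 3), 12, 12, 10 and 8 with the 36kb deletion, 6 and 7 with the 42kb deletion, 8 to 17 in E11.5 WT (median 9.5), and 15 and 16 at E8.5. Pax3 had 2 of 34, Snai2 3 of 20, Twist1 3 of 9 and Sox9 1 of 8. Zic2 had 27 E8.5 pairs, none of them progenitor-only. Sox10 and Ets1 had no E8.5 pair to judge. The list of early crest and neural plate border genes gave 49 of 422 pairs (11.6%).

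Genes of the neural plate and of facial patterning were nearer to the whole. The neural plate list had 101 of 566 pairs progenitor-only (17.8%), led by Dbx1, a factor of interneuron progenitors, with 14 of 35, then Sox3, a factor of neural progenitors, with 9 of 18, and the Notch ligand Dll1 with 8 of 35. Sox2 had 32 E8.5 pairs and no progenitor-only pair. The facial patterning list had 94 of 551 (17.1%), 59 of them at 1 Mb or more, led by Dlx2 with 13 of 21, Lhx6 with 11 of 18, Tbx3 with 9 of 24 and Dlx1 with 8 of 17. Hox genes, which set position along the body axis, had 118 of 1262 (9.35%), with 9 of 36 at a Hoxd4 bait, 9 of 65 at Hoxb8 and 8 each at Hoxd12 and Hoxd10. Hoxa2, the Hox gene of second arch identity, had 4 of 28.

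The remaining lists set the scale. Signalling ligands and receptors had 25 of 332 pairs progenitor-only (7.53%), pluripotency genes 7 of 92 (7.61%), cell cycle genes 21 of 210 (10.0%), skeletal genes 18 of 178 (10.1%), housekeeping genes 56 of 358 (15.6%) and Polycomb subunits 19 of 94 (20.2%). Ezh2 itself had 2 E8.5 pairs and no progenitor-only pair. Among genes that mark other cell types, the shares were 9.52% for epithelial, 21.5% for endothelial, 7.52% for muscle and cranial mesoderm, 15.9% for neuronal, 12.9% for blood and 18.5% for endoderm genes. Summed calls were 167 to 203 in E11.5 WT libraries, and 148 and 156 at E8.5, over the epithelial baits. They were 104 to 146 in E11.5 WT, and 111 and 124 at E8.5, over the endothelial baits, and 188 to 231 in E11.5 WT, and 205 and 210 at E8.5, over the muscle baits. They were 93 to 117 in E11.5 WT, and 111 and 124 at E8.5, over the neuronal baits. Blood baits had 207 to 268 in E11.5 WT, and 263 and 306 at E8.5, and endoderm baits 194 to 211 in E11.5 WT, and 220 and 222 at E8.5. The part of other cell types in the progenitor-only pairs was not tested.

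Developmental promoters joined to each other across megabases were examined as a group. It was defined after seeing the data as pairs of 1 Mb or more with a gene of the Hox, crest, neural plate, facial patterning or signalling lists within 2 kb of each end. Of 111 such pairs called in both E8.5 libraries, 46 (41.4%) were progenitor-only and 20 were kept in all 8 E11.5 WT libraries. The share was near that of all 10774 E8.5 pairs of 1 Mb or more, of which 40.4% were progenitor-only. At 1 to 10 Mb it was 27.7% (18 of 65), against 28.9% of all pairs of that distance, and at 10 Mb or more 60.9% (28 of 46), against 73.2%. The matching tissue-only counts were 0 for FNP, 2 for Mx, 1 for Md and 6 for PA2. The 46 pairs spanned 1138 to 72514 kb, with a median of 15067 kb, and 31 were on chromosome 2. A Hoxd fragment was an end of 28, and these were joined to Dlx1 or Dlx2 in 15, to Pax6 in 9 and to Lhx2 in 2. Pax6 is a factor of eye and forebrain, Lhx2 of forebrain and eye, and the Dlx genes pattern the pharyngeal arches and the ventral forebrain.

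Single pairs in this group had high scores in both E8.5 libraries. Hoxd12 and Pax6, 30993.5 kb apart, scored 15.29 and 27.17. A second Hoxd4 bait with the same Pax6 bait scored 15.22 and 35.55. Lhx2 and Dlx2, 33198.7 kb apart, scored 14.54 and 20.51, and Dlx1 with a fragment at Hoxd8 and Hoxd9, 3179.91 kb apart, scored 17.39 and 14.13. Dlx2 with a Pax6 fragment, 34132.2 kb apart, scored 14.84 and 8.36. Of the promoters printed above, the bait of Hoxd12 had progenitor-only contacts with the baits of both Pax6 and Dlx2, the latter scoring 8.77 and 8.53. The Dlx2 contact with Pax6 was at another Pax6 fragment, chr2:105673352-105677621, and not at the bait that holds the printed Pax6 promoter. Outside this chromosome, Twist1 and Pax9 scored 22.86 and 8.03 and Tfap2a and Msx2 9.29 and 9.06, all 4 of them regulators of facial or skeletal development. Of the other pairs, 3 joined Hoxb genes to Tbx2 and 3 joined Hoxb genes to Dlx4.

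Counting every call between Hoxd and Dlx1 or Dlx2, not only the progenitor-only pairs, showed where the contact was still seen. There were 0 such calls in each of the 8 Ezh2cKO libraries, 2, 0, 0 and 0 with the 36kb deletion, and 0 and 0 with the 42kb deletion. In E11.5 WT there were 17 and 11 in FNP, 2 and 12 in Mx, and 0 in both Md and both PA2 libraries. The E8.5 libraries had 40 and 43. The E8.5 libraries were thus highest, and the upper facial tissues were the E11.5 groups with calls in both WT libraries. Between Hoxd and Pax6, calls numbered 0 in each Ezh2cKO library, 1 to 2 with the deletions, 1 to 10 in E11.5 WT (median 4), and 27 and 33 at E8.5.

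None of the 46 progenitor-only pairs between developmental genes came back in any Ezh2cKO library, where 24.6% of all progenitor-only pairs at 1 to 10 Mb and 5.30% of those at 10 Mb or more were in at least 1. A count of 0 calls says that no score reached 5, not that the contact is absent. With the deletions 1 of the 46 was called, a Hoxd9 bait with Pax6, in 3 of 6 libraries. Of all progenitor-only pairs at 1 Mb or more, 10.3% were in at least 1 deletion library and 15.6% in at least 1 Ezh2cKO library. The deletion libraries thus also called few of the 46. Pairs of the same kind kept in all 8 E11.5 WT libraries, 20 in number, give the comparison: Ezh2cKO libraries called 0.75 ± 1.04 of them (SD, n = 8), 36kb libraries 19.75 ± 0.5 (SD, n = 4), and both 42kb libraries 19. Over all 574 such pairs, Ezh2cKO libraries had 0 to 5 calls, the 36kb libraries 63 to 68, the 42kb libraries 55 and 76, E11.5 WT libraries 89 to 121, and the E8.5 libraries 184 and 199. These groups do not overlap between Ezh2cKO and any other genotype. Total cis calls were 157752 to 183781 in Ezh2cKO, 136997 to 152360 with the deletions, 163068 to 170751 in E11.5 WT, and 149642 and 157577 at E8.5.

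**Figure D3:**
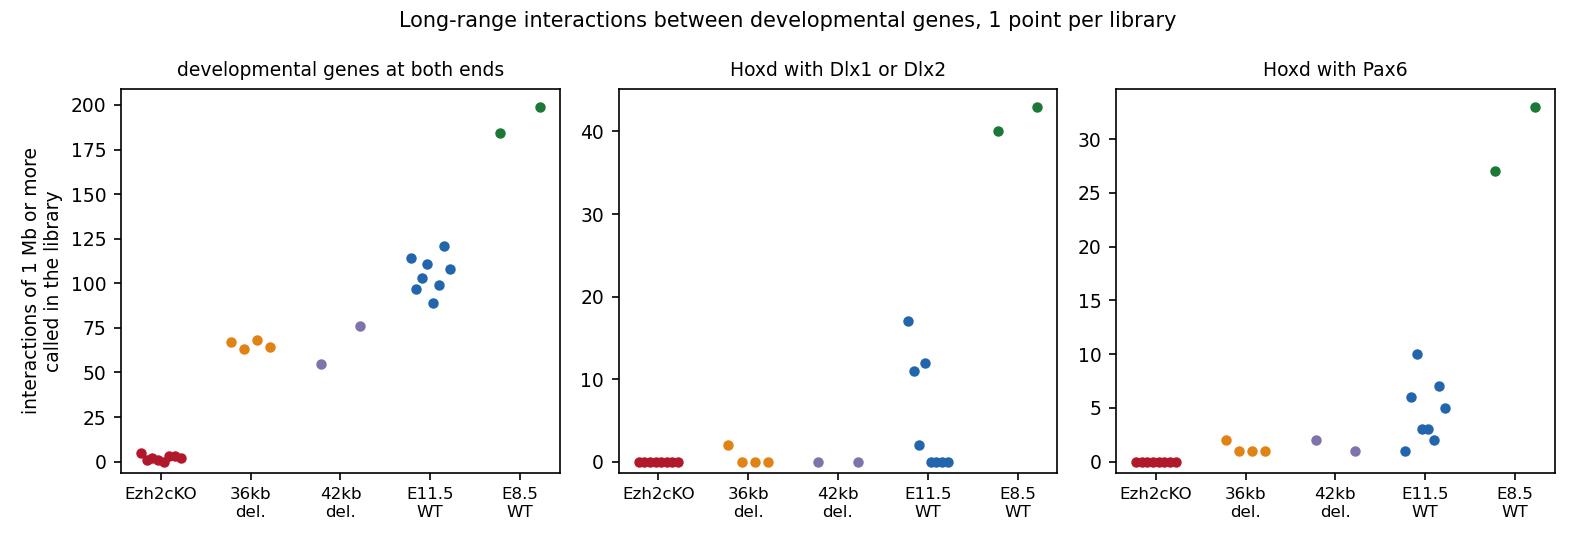
The number of calls of 1 Mb or more in each library (1 point each) between developmental genes, between Hoxd and Dlx1 or Dlx2, and between Hoxd and Pax6, by group. The Ezh2cKO libraries have 0 to 5 calls in the left panel and 0 in the others, and the E8.5 libraries are highest in all 3 panels.

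Over the whole genome, progenitor-only pairs returned at a low and similar rate in every mutant library. Ezh2cKO libraries called 7.44 ± 0.55% of the 12226 pairs (SD, n = 8), with 7.48% and 6.51% in FNP, 7.11% and 7.03% in Mx, 7.75% and 7.67% in Md, and 8.31% and 7.67% in PA2. The 36kb libraries called 7.18 ± 0.56% (SD, n = 4), with 7.55% and 6.89% in Md and 7.75% and 6.54% in PA2. The 42kb libraries called 6.90% and 7.12%. Ezh2cKO and deletion libraries overlapped. In Md and PA2 the Ezh2cKO libraries were higher than the 36kb libraries by 0.667 percentage points (7.85 ± 0.31% and 7.18 ± 0.56%, SD, n = 4 each; exact permutation test within tissue, two-sided, p = 0.111, adjusted p = 0.167 over 6 tests). The design allows no p under 0.0556 here. Set per 100000 cis calls of the library, the difference turned to -0.362. The range of 0.994 points between the 4 Ezh2cKO tissues did not pass either (exact permutation test, one-sided, p = 0.229, adjusted p = 0.274). That test passed unadjusted without FNP Ezh2cKO replicate 1 (range 1.48, exact p = 0.0286) and when pairs were chosen without E8.5 replicate 1 (0.349, exact p = 0.0381) or 2 (0.473, exact p = 0.0190).

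The rate has to be read against pairs near the rule. E8.5 pairs kept in all 8 E11.5 WT libraries were called by 93.1 ± 0.77% in Ezh2cKO (SD, n = 8), 86.8 ± 2.28% with the 36kb deletion (SD, n = 4), and 87.5% and 88.0% with the 42kb deletion. Pairs called in 1 E11.5 WT library were called again at 20.5 ± 0.90% in Ezh2cKO (SD, n = 8) and 17.1 ± 0.79% with the deletions (SD, n = 6). Pairs of 1 E8.5 library without any E11.5 WT call came back at 2.36 ± 0.11% and 2.12 ± 0.10%. Progenitor-only pairs lay between these. Return was lower at long distances: at 50 to 200 kb it was 10.6 ± 1.52% in Ezh2cKO and 10.4 ± 1.29% with deletions, and at 10 Mb or more 0.926 ± 0.18% and 0.777 ± 0.14%. Members without an E11.5 WT call within 20 kb of the other end (5068) returned at 3.36 ± 0.41% in Ezh2cKO and 2.84 ± 0.48% with deletions, against 10.3 ± 0.73% and 10.2 ± 0.49% of the others.

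Most progenitor-only pairs came back in no mutant library at all. Of 12226, 7158 (58.5%) were in none of the 14, 3748 were in at least 1 Ezh2cKO library and 3099 in at least 1 deletion library, with 1779 in both. There were 22 in all 8 Ezh2cKO libraries, 59 in all 6 deletion libraries and 2 in all 14. Of 52 pairs in at least 7 Ezh2cKO libraries, 12 were in no deletion library, and of the 59 in all 6 deletion libraries 19 were in no Ezh2cKO library.

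**Figure D4:**
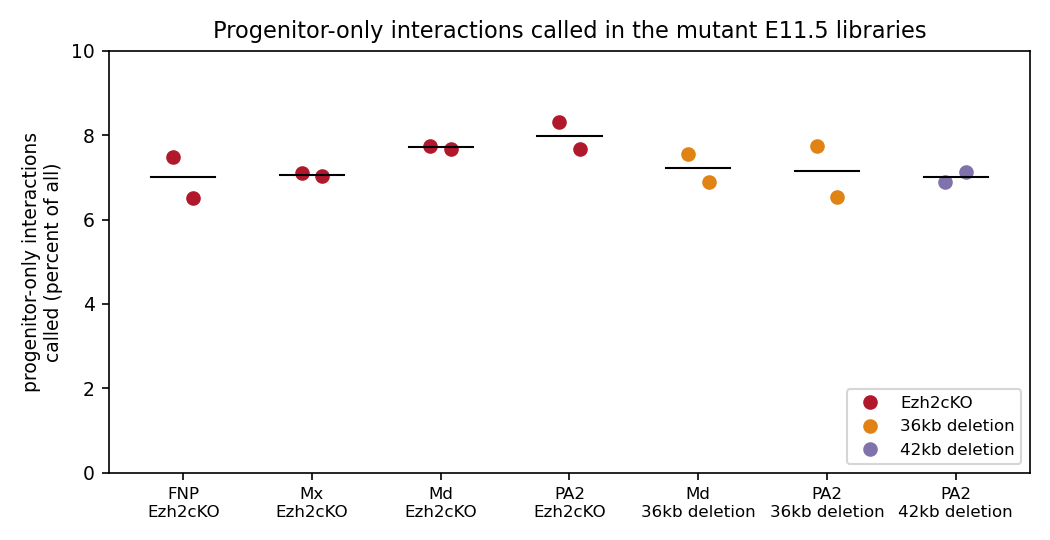
The percent of the 12226 progenitor-only pairs called in each mutant E11.5 library (points) with the mean of the 2 libraries of each group (lines). All 14 libraries lie between 6.51% and 8.31%.

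The pairs that returned in all 8 Ezh2cKO libraries, named here because of that return and so without a test, included a group at Fgf8. Fgf8 is a signal of facial ectoderm and brain, and in mouse its enhancers are known to lie in and around the neighbouring gene Fbxw4. Of the 3 progenitor-only pairs between the Fgf8 bait and Fbxw4 fragments 2, 152 and 154 kb away at chr19:45589587-45591242 and chr19:45585595-45589586, were in all 8 Ezh2cKO libraries, as was a pair of the adjoining Npm3 bait with Fbxw4. Over all Fgf8 to Fbxw4 pairs, calls in Ezh2cKO were 4 and 3 in FNP, 2 and 6 in Mx, 7 and 7 in Md, and 5 and 6 in PA2. They were 1, 1, 2 and 1 with the 36kb deletion, 2 and 2 with the 42kb deletion, 0 in each E11.5 WT library, and 3 in each E8.5 library.

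A second group joined Glp1r, the receptor of glucagon-like peptide 1, to Btbd9 over 445 and 443 kb of chromosome 17, where 2 progenitor-only pairs were in all 8 Ezh2cKO libraries. Over the 32 fragment pairs there, Ezh2cKO libraries had 18 to 27 calls, the 36kb libraries 6, 10, 5 and 13, the 42kb libraries 0, the E11.5 WT libraries 0, and the E8.5 libraries 5 and 3. Here Ezh2cKO exceeded even E8.5, and the groups at 0 were the 42kb deletion as well as E11.5 WT. The strains are not stated in the labels, and the part of strain or copy number in these calls was not tested. Wnt7b, a Wnt ligand, had all 6 of its progenitor-only pairs in at least 1 Ezh2cKO library, and 1 of its pairs with Atxn10 in all 8. Wnt7b to Atxn10 calls were 17.75 ± 2.49 in Ezh2cKO (SD, n = 8), 10, 16, 14 and 8 with the 36kb deletion, 11 and 16 with the 42kb deletion, 11.6 ± 2.62 in E11.5 WT (SD, n = 8), and 16 and 15 at E8.5. A Hoxc13 pair with a fragment at the noncoding gene Gm36560 was in all 8 Ezh2cKO and in no deletion library.

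Other returning pairs were in mutants of both kinds. Sos1, a Ras exchange factor, with Cdkl4 was in all 14 mutant libraries. Cs, citrate synthase, with the Esyt1 bait 187 kb away scored 28.97 and 27.10, the highest lower E8.5 score of any progenitor-only pair at a named bait, and was in 6 of 8 Ezh2cKO and 6 of 6 deletion libraries. An Ubap2l pair was in 0 of 8 Ezh2cKO and 6 of 6 deletion libraries, and Pcdh8, a protocadherin, had one in 2 of 8 and 6 of 6. An Angptl4 pair spanning 26315 kb was in all 8 Ezh2cKO libraries, with scores of 7.40 to 82.97, and in no deletion library. Of the 25 members of the signalling list, which holds Wnt7b, 22.0 ± 7.09% were called in Ezh2cKO (SD, n = 8). With deletions the share was 12.0 ± 5.06% (SD, n = 6). Over all members these shares were 7.44% and 7.13%. Fgf8 is on the neural plate list, which had 8.04 ± 1.63% and 8.42 ± 2.56% of its 101 members called. The facial patterning list had 2.66 ± 1.27% and 3.37 ± 1.57% of its 94. Members of these lists differed in distance, with medians of 223 kb (signalling), 265 kb (neural plate) and 1438 kb (facial patterning). Return was lower at long distances, and the part of distance in these shares was not tested. Hoxd12, Hoxd10, Dlx1 and Tbx3 had no member called in any mutant library.

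Other high-scoring pairs came back in few mutant libraries or none. Xkr4 and a fragment adjoining the bait of Hjurp, the chaperone of centromeric histone, 84606.9 kb apart on chromosome 1, scored 26.73 and 28.18 and were in no mutant library. The Hjurp bait with another Xkr4 fragment scored 26.03 and 25.63, and was in 0 of 8 Ezh2cKO and 2 of 6 deletion libraries. Evx2, beside the Hoxd cluster, and Tbr1, a forebrain factor, 12848.4 kb apart, scored 18.89 and 22.78 and were in none either. Calcrl with a fragment at chr2:78022371-78024127 scored 21.97 and 19.42, again without return. That fragment lies near the Cwc22 bait. Cdkn2c, a cell cycle inhibitor, scored 31.17 and 23.73 over 322 kb, and came back in 0 of 8 Ezh2cKO and 3 of 6 deletion libraries.

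Whether mutant libraries call such pairs more often than WT libraries of the same stage cannot be read from the members, which by rule are absent from WT. The rule was therefore rebuilt for each tissue without its own libraries: pairs in both E8.5 libraries and in none of the 6 WT libraries of the other 3 tissues, 13726 to 14058 pairs a tissue. Ezh2cKO libraries called 9.29 ± 0.74% of these and WT libraries of the same tissue 6.87 ± 0.75% (SD, n = 8 each). Ezh2cKO was higher in 4 of 4 tissues, by 2.42 points (exact permutation test within tissue, two-sided, p = 0.00154, the smallest it allows, adjusted p = 0.00926). With pairs chosen without E8.5 replicate 1 the difference was 0.855 points, and without replicate 2 it was 0.912 points. The 36kb libraries called 8.76 ± 0.63% in Md and PA2 and WT libraries 7.50 ± 0.41% (SD, n = 4 each), a difference of 1.26 points that the design could not call (exact p = 0.0556, the smallest possible, adjusted p = 0.111). The 42kb libraries called 8.62% and 8.72%.

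This difference depended on which genotype the pairs had to be absent from. Requiring absence from the other tissues' WT libraries alone takes out pairs that WT tissues share. It leaves in pairs that Ezh2cKO libraries share among themselves. The p-values under that choice therefore cannot separate genotype from the choice of pairs. When absence was required from both genotypes of the other tissues, a choice made after seeing the data, Ezh2cKO libraries called 3.66 ± 0.28% and WT libraries 3.68 ± 0.43% (SD, n = 8 each). The difference was then -0.0271 points (exact permutation test, p = 0.787). For the 36kb deletion, absence was required only from the WT and 36kb libraries of PA2 (for Md) or of Md (for PA2). FNP and Mx WT libraries were not used, which left 17651 pairs in Md and 16892 in PA2. Deletion libraries called 9.33 ± 0.71% of them and WT libraries 12.4 ± 1.10% (SD, n = 4 each, exact permutation test, p = 0.0556). The difference of -3.07 points rests on other pairs than the 1.26 points above, so the change of sign cannot be read. As another denominator, also chosen after seeing the data, each library's own cis calls absent from the WT libraries of the other tissues were used, 43439 to 57607 a library. The E8.5 pairs were 2.48 ± 0.28% of these in Ezh2cKO and 2.03 ± 0.19% in WT libraries (SD, n = 8 each; 0.447 points, exact permutation test, p = 0.00154).

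Baits of developmental genes, those of the same 5 lists, also depended on this choice. Under the first choice, over 412 to 436 pairs a tissue, Ezh2cKO libraries called 9.29 ± 1.12% and WT libraries 7.22 ± 1.95% (SD, n = 8 each; 2.07 points, exact permutation test, p = 0.0154, adjusted p = 0.0463), with Ezh2cKO higher in 3 of 4 tissues. In PA2 it was 9.17% in both Ezh2cKO libraries, against 11.0% and 8.94% in WT. With absence from both genotypes required, over 318 to 345 pairs, Ezh2cKO libraries called 2.06 ± 0.83% and WT libraries 5.55 ± 2.11% (SD, n = 8 each). Ezh2cKO was then lower in 4 of 4 tissues, by 3.48 points (exact permutation test, p = 0.00154, unadjusted). The libraries of the genotypes did not overlap within any tissue. The sign followed the choice of pairs, and the second choice was made after seeing the data. No genotype effect is therefore read from either p-value, and the same holds for the pairs of 1 Mb or more below. With a score of 7 required in both E8.5 libraries the first choice gave a difference of -1.45 points (exact p = 0.389), and without E8.5 replicate 1 it gave 1.14 points. For pairs of 1 Mb or more, the first choice gave 3.9 ± 0.58% in Ezh2cKO and 3.89 ± 0.56% in WT (SD, n = 8 each; 0.00927 points, exact p = 0.981), and the second 1.87 ± 0.25% and 2.31 ± 0.24% (-0.445 points, exact p = 0.00309, unadjusted).

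**Figure D5:**
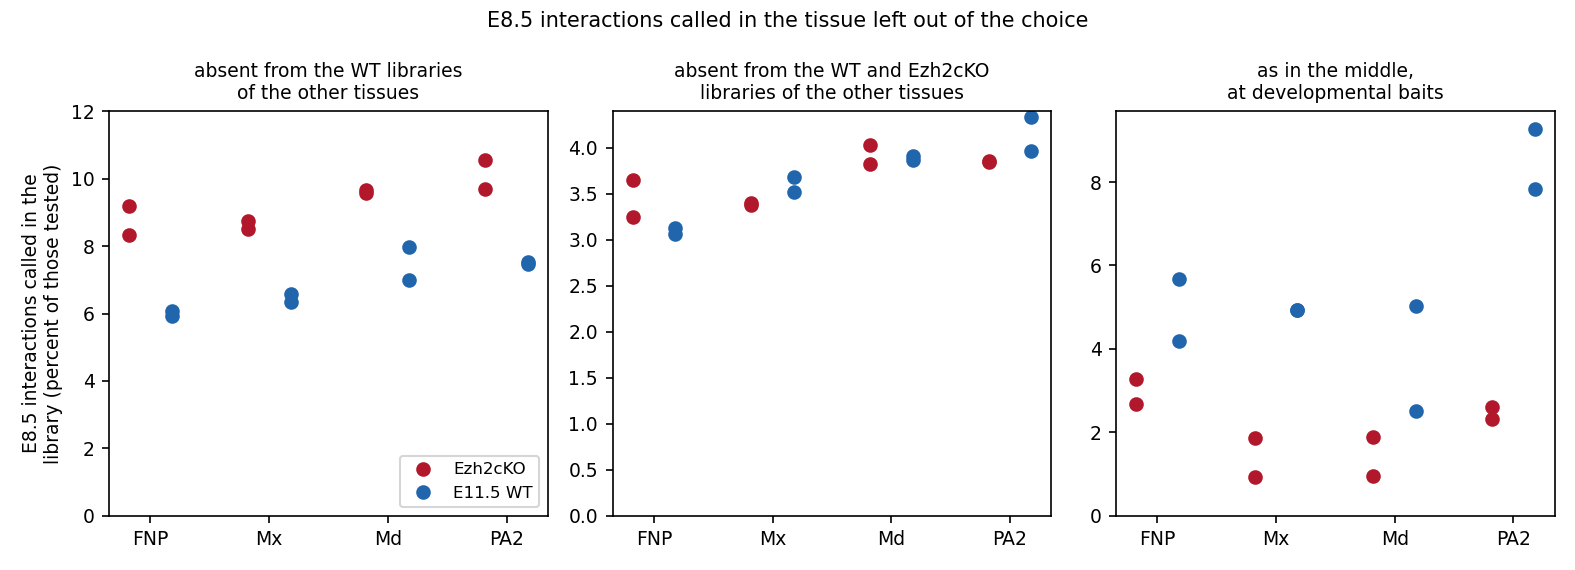
The percent of E8.5 pairs called in each Ezh2cKO (red) and E11.5 WT (blue) library of a tissue left out when the pairs were chosen. Pairs had to be absent from the WT libraries of the other tissues (left) or from their WT and Ezh2cKO libraries (middle, and right for developmental baits); Ezh2cKO is higher in 4 of 4 tissues on the left and lower in 4 of 4 on the right.

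Calls per bait were also compared between Ezh2cKO and the 36kb deletion, the mutants that the rule did not use, in Md and PA2. The log2 of a bait's cis calls per total cis calls was fitted with limma over the 10344 baits averaging 5 calls or more. Of these, 15.2% passed an adjusted p of 0.05, 7.31% higher and 7.91% lower in Ezh2cKO. Of the 537 baits with 5 or more progenitor-only pairs 496 could be tested, and 50 (10.1%) were higher and 62 (12.5%) lower. Of 4722 tested baits with at least 1 such pair, 368 (7.79%) were higher and 388 (8.22%) lower, close to all baits. The median log2 difference was -0.05 at baits with 5 or more and -0.02 over all.

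Of the named baits 89 could be tested, and 7 were higher and 16 lower, beside 7.31% and 7.91% of all tested baits. Many named baits were taken from lists of developmental genes, so nothing is read from how many falls were at such genes. Foxd3 had 4, 0, 4 and 4 calls in Ezh2cKO (Md, then PA2) and 12, 12, 10 and 8 with the 36kb deletion, a log2 difference of -2.30 (SE 0.45, limma adjusted p = 0.00178) that was -1.47 without Md Ezh2cKO replicate 2. Dbx1 had 8, 8, 11 and 3 calls in Ezh2cKO, against 21, 27, 18 and 21 with the deletion, a log2 difference of -1.82 (SE 0.25, limma adjusted p = 5.8e-05). At both baits every Ezh2cKO library was below every 36kb library.

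Further falls were at Pax3 (log2 difference -2.20, SE 0.16), the blood factor Tal1 (-1.98, SE 0.22), Sox3 (-1.47, SE 0.38) and Hoxd12 (-0.80, SE 0.17), each with a limma adjusted p of 0.0118 or less. Sox3 no longer passed without PA2 Ezh2cKO replicate 2, at a limma adjusted p of 0.0569. Cxcr4, despite its 14 progenitor-only pairs, had 1, 3, 12 and 4 calls in Ezh2cKO and 9, 7, 12 and 6 with the deletion. Its groups overlapped, and its call (log2 difference -1.31, SE 0.43, limma adjusted p = 0.0456) did not hold in 8 of its 12 alternatives (limma adjusted p up to 0.212). Of the named baits with most members, Usf2 was lower by 0.43 on the log2 scale (limma adjusted p = 0.0191) and Nrp higher by 0.78 (SE 0.21, limma adjusted p = 0.0170), while Gramd1a did not pass (0.28, SE 0.19, limma adjusted p = 0.348). The Usf2 call was lost without Md Ezh2cKO replicate 2 (-0.40), PA2 Ezh2cKO replicate 1 (-0.41) or Md 36kb replicate 2 (-0.28). Nrp had 24, 37, 25 and 36 calls in Ezh2cKO (Md, then PA2) and 11, 16, 10 and 25 with the 36kb deletion. E11.5 WT libraries had 18 to 37 and overlapped Ezh2cKO. The Nrp call was lost without Md or PA2 Ezh2cKO replicate 2 (0.67 and 0.66) or without Md or PA2 36kb replicate 1 (0.66 and 0.49).

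The lists differed in how many of their baits fell. Of 34 tested neural plate baits, 14 fell and 0 rose in Ezh2cKO (limma; 16 lower and 2 higher at an unadjusted p under 0.05), and of 47 facial patterning baits 12 fell and 2 rose. Of 41 Hox baits 14 fell and 5 rose, and of 27 early crest baits 5 fell and 3 rose. Signalling baits moved in 3 of 41 cases, 1 lower and 2 higher, and housekeeping baits in 3 of 29, 2 lower and 1 higher. Among lists with fewer tested baits, 5 of 9 endoderm, 3 of 5 neuronal and 3 of 10 pluripotency baits fell and 0 rose (limma; unadjusted p under 0.05 gave the same counts), and 1 of 13 blood, 1 of 9 muscle, 0 of 7 endothelial and 0 of 7 epithelial baits fell (limma; unadjusted p under 0.05 gave 3, 1, 1 and 0). The lists were written with earlier results of these data known, so these counts are a description beside the 7.91% and 7.31% of all baits. Against E11.5 WT, whose libraries the rule used, 5.38% of all baits were higher and 5.39% lower in Ezh2cKO, and nothing is read from the members' baits there.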

How the data were processed

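Promoter capture Hi-C of mouse cranial neural crest cells was deposited as 1 list of interactions per library, on GRCm38 (mm10) per the submitters' processing notes. Each deposited line holds a pair of HindIII fragments and a score; every score is 5 or more, so a pair below that is not listed. The labels name no caller. Read depth is unknown, and scores were not compared between libraries. Cross-linking was with 2% paraformaldehyde per the labels' protocols.

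Fragment pairs were treated as unordered, and pairs between chromosomes were left out. A bait took the names of protein-coding genes in RefSeq's GRCm38.p6 table with a start inside it, or within 1 kb where none lay inside. Starts were available for 17492 genes, and for 4395 others either end of the gene was used in place of a start. Inside 72.5% of baits lay such a position, and inside 14.7% when shifted by 50 kb. Distances run between midpoints. The log2 of a bait's calls per cis call of its library (0.5 added) was fitted by group in limma 3.58.1 (R 4.3.3) over baits averaging 5 calls or more, with Benjamini-Hochberg adjustment and an adjusted p threshold of 0.05. Shares per library were compared by exact permutation within tissue (Python 3.11.15, NumPy 2.4.6, pandas 2.3.3). The scripts were tested on simulated data. p-values measure the spread between these libraries.

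Named baits were the 10 with most members, members with the highest score or return (10, 10 and 5), up to 4 of each gene list, and a set of crest genes; the 15 baits with every pair progenitor-only, the region blocks, the summed loci and other genes of the developmental pairs were named after their values were seen. The members and lists were chosen with earlier results of these data known. One PA2 36kb library carries another sample's title as its genotype and was grouped by its own title. Alternatives were a stricter score, a call-free window, library-size scaling, other limma filters and scaling, a replicate block, each library left out and, after seeing the data, absence from both genotypes and another denominator. Some loci are not reported here.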

Additional observations from a re-analysis of the deposited data

Results flagged for a closer look

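The shares returned and the calls at the main baits and loci were examined for outlying libraries in 46 groups, and 2 had a library standing apart, where chance gives about 1 in 20. At the Cwc22 bait Mx Ezh2cKO replicate 1 had 5 calls, and the next Ezh2cKO library had 2. Between Fgf8 and Fbxw4 PA2 36kb replicate 1 had 2 calls and the other 36kb libraries 1. These are differences of 1 to 3 calls.

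Pairs between chromosomes were not part of the rule. Of 1888 such pairs called in both E8.5 libraries, 363 (19.2%) were in no E11.5 WT library, 162 of the 363 were in at least 1 Ezh2cKO library and 119 in at least 1 deletion library. The same rule gave 51 of 1749 FNP pairs (2.92%), 59 of 1841 Mx pairs (3.20%), 86 of 1857 Md pairs (4.63%) and 123 of 1966 PA2 pairs (6.26%).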

How the results depend on the processing

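The number of progenitor-only pairs was 1981 with a score of 7 required in both E8.5 libraries, 4776 with 7 in all libraries and 5068 with no E11.5 WT call within 20 kb. With 1 library left out it lay between 12892 and 62987. The higher return in Ezh2cKO than in WT held its sign and threshold in 24 of 25 alternatives (0.855 to 2.55 points with 1 library left out). All 24 chose pairs by absence from WT libraries alone, which leaves in pairs shared between Ezh2cKO tissues. The count is therefore no measure of a higher return. The difference was -0.0271 points when absence from both genotypes was required. That choice, made after seeing the data, gave -3.48 points at developmental baits and -0.445 at 1 Mb or more. For the 36kb deletion, absence from the WT and 36kb libraries of the other of Md and PA2 alone, without FNP and Mx, gave -3.07 points. Under the first choice, absence from the WT libraries of the other tissues, the 36kb difference was 0.249 to 1.60 with 1 library left out. At developmental baits a score of 7 in both E8.5 libraries gave -1.45, and leaving out a library 1.14 to 2.34. At 1 Mb or more the sign changed in 12 of 24 alternatives: -0.540 with 7 in both E8.5 libraries, -0.442 with 7 in all, -0.0685 without a nearby WT call, -0.0634 per 100000 cis calls, and -0.123 to 0.141 with 1 library left out. The return in Ezh2cKO less that in the 36kb deletion was -0.362 per 100000 cis calls and 0.334 to 0.969 with 1 library left out, and the range between Ezh2cKO tissues 0.349 to 1.48. Baits passing the limma threshold between Ezh2cKO and the 36kb deletion numbered 1574, 961 with a mean of at least 10 calls, and 1062 to 1579 with 1 library left out; against WT they numbered 1115, and 805 to 984.

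Replicate numbers did not pair the libraries: over 66 pairs of groups the correlation of same-numbered deviations was -0.0860 to 0.158, with 1 above 0.1. With a replicate block the differences were the same (2.42, 1.26, 0.667, 0.994, 2.07 and 0.00927 points), with exact p = 0.00781, 0.125, 0.125, 0.25, 0.0391 and 0.984, and limma passed 1574 and 1083 baits. Read depth was unknown, so a pair not listed has only a score under 5, and most members lay near that limit.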
